A study of Schmidtea mediterranea with 2 samples.

Results

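Cells marked by SMESG000019976.1 were examined in single-cell RNA sequencing data from the trunk of the planarian Schmidtea mediterranea, a freshwater flatworm. They were chosen as cells with at least 200 detected genes and at least 3 UMIs (unique molecular identifiers, each standing for 1 captured transcript) summed over SMESG000019976.1 and SMESG000006021.1. These UMIs also had to make up at least 0.3% of the cell's total. The rule found 190 of 12759 cells, 129 of 5978 in the control library and 61 of 6781 in the foxA library. The marker levels describe these cells and are not a result. The animals of both libraries were of strain CIW4, and 1 library came from Control RNAi animals and 1 from FoxA RNAi animals. Trunks of 50 animals per condition were pooled, dissociated and sorted for nucleated live cells before droplet-based 3′ sequencing. Ages, the number of RNAi doses and the days between RNAi and dissection were not given in the sources used here.

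RNA interference (RNAi) lowers a transcript through double-stranded RNA of its sequence. Planarian tissues are renewed from stem cells, and the progeny of these cells take on the fates of the different organs. In this species the forkhead transcription factor foxA is known for its part in making the pharynx, the muscular feeding tube that lies in the trunk. The files name each gene by an SMESG identifier alone. The class is therefore called by its markers, no gene is given a role, and the level of foxA itself, like the labelled tissue, was not checked against named genes.

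With 1 library per condition there was no test between the conditions, and every interval given is a 95% interval of counting error alone, since PCR and sampling of animals add to it. The libraries held 4329019 and 7852495 UMIs, in the order control and foxA. The median control cell had 563 UMIs and the median foxA cell 904. The lowest totals were 286 and 440 UMIs. Of the deposited barcodes 13 occurred in both libraries, and no member carried such a barcode.

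Few cells lay just outside the rule. Exactly 3 marker UMIs were found in 10 control members and 3 foxA members, and 15 control cells and 8 foxA cells had 2. A further 2 cells in each library had 3 or more marker UMIs but too small a share, at most 0.282% of the control cell's total and 0.236% of the foxA cell's. The lowest shares among members were 0.368% and 0.35%. The median control member had 8 marker UMIs (range 3 to 50) and the median foxA member 11 (range 3 to 147). As a share of the cell this was 1.34% and 1.33%.

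SMESG000019976.1 defined nearly the whole class, and SMESG000006021.1 only a small section of it. The first gene had a UMI in 128 of the 129 control members and in all 61 foxA members. Its level was 14546 CPM (UMIs scaled to a total of 1000000) in control members and 14624 CPM in foxA members. In all other cells it stood at 17.3 CPM in the control library and 4.24 CPM in the foxA library, where 0.650% and 0.327% of cells had a UMI. The second gene had a UMI in 13 members of each library, which is 10.1% of the control members and 21.3% of the foxA members. Among all other cells it was seen in 6 control cells and 3 foxA cells. Members were about as deep as other cells, with medians of 565 against 563 UMIs in the control library and 841 against 905 in the foxA library.

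A broad set of further genes distinguished the members from all other cells, and this profile was alike in both libraries. To find the 20 leading genes, genes with at least 50 UMIs in members, markers left out, were ranked by CPM + 10 in control members over that in all other control cells. Their log2 ratio lay between 5.69 and 7.17 in the control library, where 50.4% of 490 genes were at least 4-fold higher in members. In the foxA library, which counted toward the limit of 50 UMIs but not in the ranking, it lay between 5.44 and 7.33. All 20 were at least 4-fold higher in members of the foxA library, as were 48.6% of the same 490 genes. Because the members were picked by their markers in both libraries, these ratios describe the class and test nothing.

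SMESG000024922.1 led the list, with 2286 CPM in control members against 5.94 CPM in other control cells. In the foxA library it had 1953 CPM in members against 2.18 CPM in other cells. At least 1 UMI of it was seen in 62.8% of control members and 75.4% of foxA members, so it marked most of the class in both libraries. SMESG000015083.1 came next, with 1641 and 1262 CPM in control and foxA members against 4.51 and 1.80 CPM in the other cells. The most abundant leading gene was SMESG000019975.1, with 7795 CPM in control members and 9265 CPM in foxA members. It was less specific, since other cells had 133 and 161 CPM. SMESG000051013.1 had 4630.0 CPM in control members and 4252 CPM in foxA members, against 41.8 and 25.8 CPM elsewhere. No leading gene drew more than 17.1% of its UMIs in the members of a library from 1 cell.

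**Figure D1:**
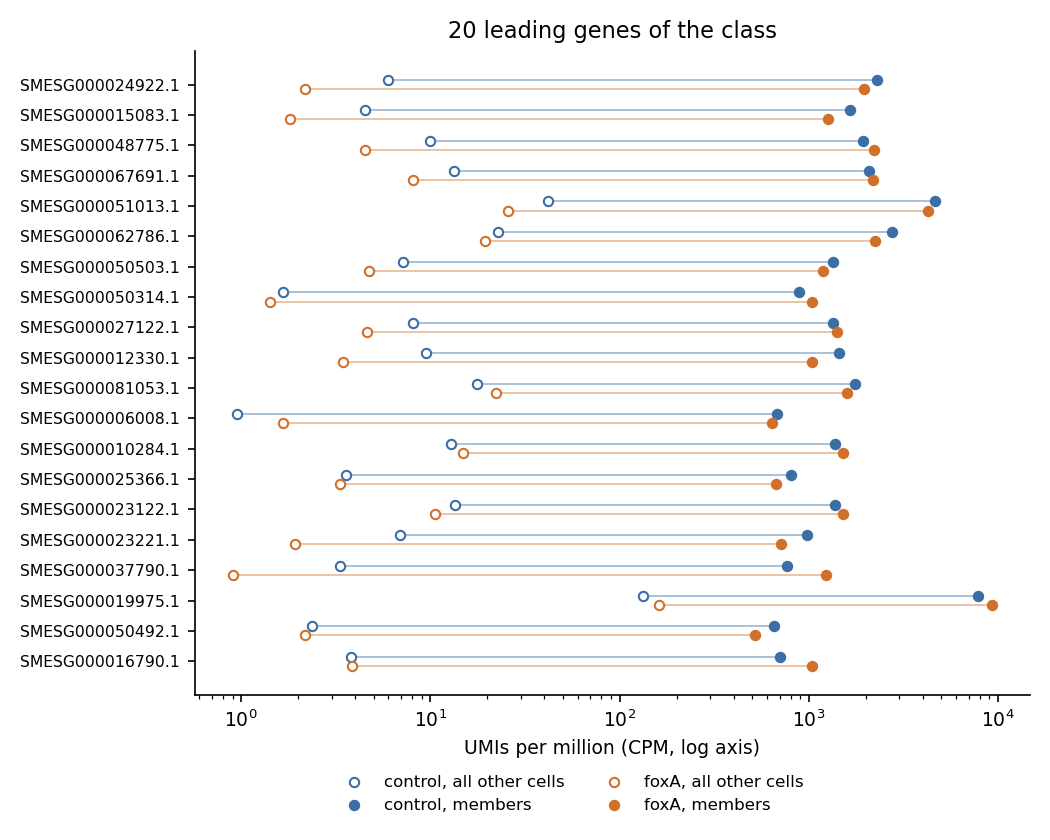
Levels of the 20 leading genes, in CPM on a log axis, in members (filled) and in all other cells (open) of the control library (blue) and the foxA library (orange). In each row the filled points of both libraries lie close together, and far to the right of the open points.

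At the other end of the list, 3 genes were lowest in control members relative to other control cells. SMESG000049723.1 had 11.7 CPM in control members against 251 CPM in other control cells, SMESG000003087.1 had 164 against 916 CPM, and SMESG000051670.1 had 141 against 757 CPM. These genes had 1, 14 and 12 UMIs in control members and passed the limit of 50 UMIs only through the foxA members, so higher levels there follow from the filter. In the foxA library they stood at 1331, 1141 and 691 CPM in members, and at 558, 1001 and 969.6 CPM in other cells. Each had UMIs in few members, the first in 0.775% of control members and 6.56% of foxA members.

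Markers of the other cell classes of the series, 1 gene for each of 10 classes, were mostly rare among the members. The exception was SMESG000075928.1, with 82.1 CPM in control members against 45.6 CPM in other control cells. In the foxA library it had 69.1 against 82.6 CPM. These levels rest on 7 and 4 UMIs in members. In control members 2 of the 10 had 0 UMIs, and in foxA members 5 of the 10. A member reached the same rule (3 UMIs and 0.3%) for any of them in 6 of 129 control cells (4.65%) and 5 of 61 foxA cells (8.20%). Among all other cells, which include the cells that these markers define, 33.9% and 40.1% did. Summed over the 10 genes the median member had 0 CPM in both libraries, with a range of 0 to 14180.3 CPM in the control library and 0 to 7500.0 CPM in the foxA library. The 11 members that reached another class are kept below, and values without them stand beside the subgroup and within-class results.

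The class was not uniform. Members were clustered among themselves with both markers left out, which gave 3 subgroups. Subgroup A had 91 cells, subgroup B 78 and subgroup C 21. All 21 cells of C had UMIs of SMESG000006021.1, although the gene took no part in the clustering, and 0 cells of A and 5 cells of B did. In C the gene stood at 28584 CPM in the control library and 37204 CPM in the foxA library. In A and B taken as a unit it stood at 322 and 61.8 CPM. SMESG000019976.1 was found in 20 of the 21 cells of C. It was also found in all 169 cells of A and B, which follows from the rule for those without SMESG000006021.1.

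**Figure D2:**
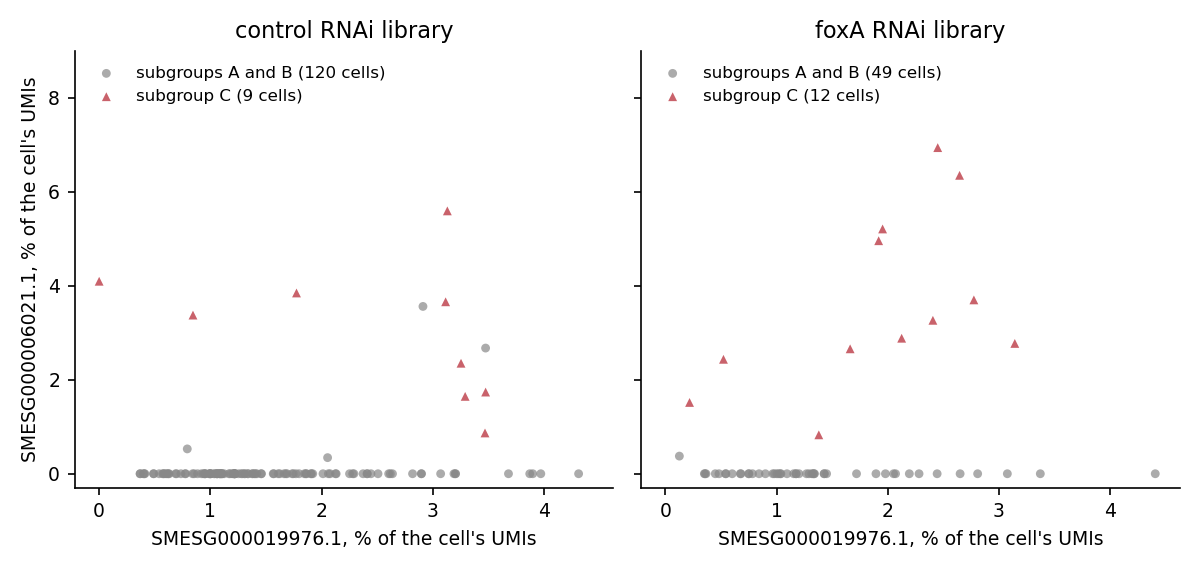
Share of each member's UMIs from SMESG000019976.1 (x axis) and SMESG000006021.1 (y axis), in percent, in the control library (left) and the foxA library (right). Grey circles are cells of subgroups A and B and red triangles are cells of subgroup C, which lie above 0 on the y axis while nearly all grey circles lie on it.

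Subgroup C had further genes of its own. SMESG000016953.1 had 168 UMIs in 20 of its 21 cells, or 12017 CPM, against 101 CPM in the other members. It was also seen outside the class, at 529 CPM in non-members. SMESG000018382.1, which was named after its values were seen, was confined more closely, with 4077 CPM in C, 31.0 CPM in the other members and 2.25 CPM in non-members. Its level in C was 3654 CPM in the control library and 4289 CPM in the foxA library. These genes helped to define C and are given as a description.

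Of the 20 leading genes, 15 had UMIs in subgroup C and 5 had none. Relative to all non-members, these 15 were at least 4-fold higher in C, and all 20 were in A and B. Among all genes with at least 50 UMIs, 68.4% of 19 genes in C and 50.7% of 428 genes in A and B were. The leading genes had at most 37 UMIs in C and are not among those 19. They could also take part in the clustering, so their count and levels in C are a description. The fewest among the 15 were 2 UMIs of SMESG000048775.1 and 3 of SMESG000050492.1, each in 2 cells of C. SMESG000048775.1 stood at 143 CPM in C, below the 215 CPM that 0 UMIs would allow, and at 2253 CPM in A and B. The line between the 15 and the 5 is thus not sharp. The other 5 had 0 UMIs among the 13980 UMIs of C, a count that allows up to 215 CPM. SMESG000051013.1 was one of them. It had 641 UMIs in 142 of the 169 cells of A and B, or 4962 CPM, and was thus at least 23.1-fold lower in C over the group. The others were SMESG000050314.1, SMESG000037790.1, SMESG000023221.1 and SMESG000006008.1, at least 4.91-, 4.91-, 4.47- and 3.43-fold lower. Among the genes seen in both, SMESG000067691.1 stood at 2361 CPM in C and 2098 CPM in A and B, and SMESG000016790.1 at 2003 and 712 CPM.

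**Figure D3:**
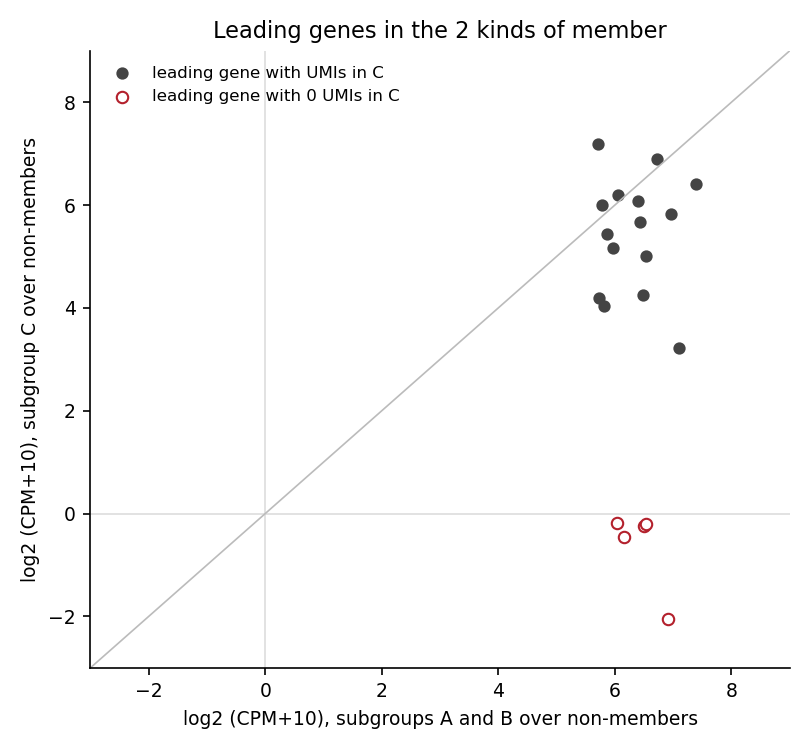
The 20 leading genes of the class, by the log2 ratio of CPM + 10 over all non-members in subgroups A and B (x axis) and in subgroup C (y axis), both libraries summed. The 15 filled points lie above 3 on both axes, and the 5 open points, with 0 UMIs in C, lie below 0 on the y axis, where the ratio depends on the added 10 CPM.

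The class made up a smaller share of the foxA cells, which is how it came to be chosen. Its share was 2.16% of control cells (1.80% to 2.56%) and 0.900% of foxA cells (0.689% to 1.15%), so that the log2 ratio was -1.26 (-1.73 to -0.81). The foxA library was the deeper, so each cell was also thinned to 400 UMIs and the rule applied again. This left out 1438 control cells, 27 members among them, and 0 foxA cells. The class then held 90 of 4540 control cells, 1.98%, and 51 of 6781 foxA cells, 0.752%, a log2 ratio of -1.40 (-1.92 to -0.89). Median detected genes in thinned cells were 315.5 in control members and 319 in foxA members.

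The lower share was seen in A and B, while the few cells of C gave no clear direction. A and B as a unit had 120 control cells and 49 foxA cells. This was 2.01% (1.67% to 2.40%) against 0.723% (0.535% to 0.954%), with a log2 ratio of -1.47 (-1.98 to -0.98). C had 9 control cells and 12 foxA cells. This was 0.151% (0.0689% to 0.286%) against 0.177% (0.0915% to 0.309%), with a log2 ratio of 0.23 (-1.14 to 1.66). The ratio of C was below 0 in 5 of 9 other ways of drawing it, down to -0.50. C thus made up 6.98% of control members and 19.7% of foxA members. The difference between these log2 ratios was 1.71 (0.23 to 3.22). Its interval rests on 21 cells, and it spanned 0 in 5 of these 9 alternatives, in which the difference lay between 0.85 and 1.85. When the members were clustered again without the 11 that reached another class, C had 11 control and 10 foxA cells. Its log2 ratio was then -0.32 (-1.71 to 1.06), and the difference from the rest was 1.15 (-0.36 to 2.62). After thinning, C had 7 control and 12 foxA cells, and A and B had 83 and 39, with log2 ratios of 0.20 (-1.26 to 1.78) and -1.67 (-2.26 to -1.10). Median depth in C was 474 UMIs in control cells and 630.5 in foxA cells, against 572.5 and 867 in A and B.

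**Figure D4:**
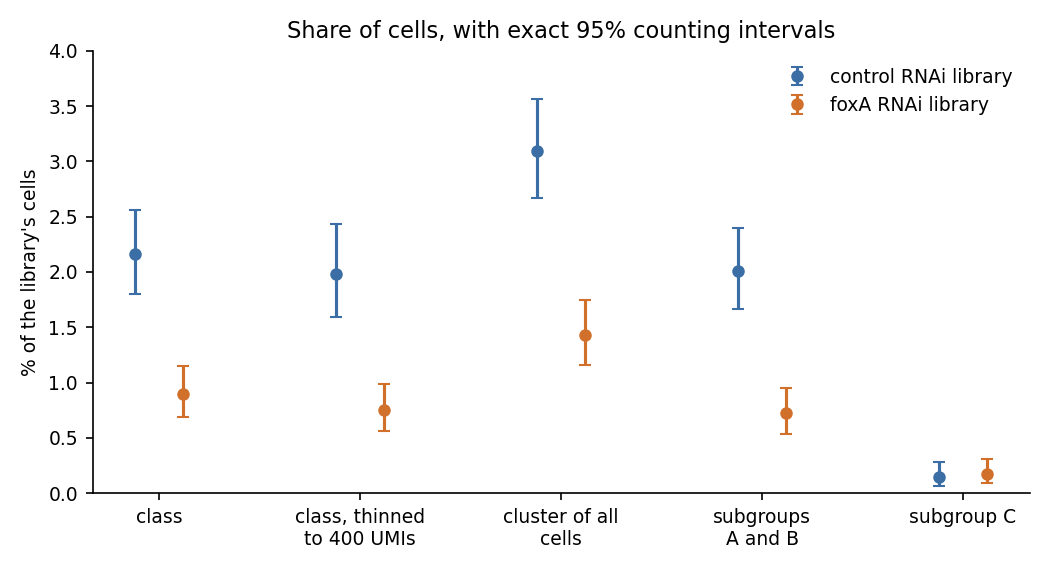
Share of each library's cells, in percent, for the class, the class after thinning, the matching cluster of all cells and the subgroups, in the control library (blue) and the foxA library (orange). Bars are exact 95% intervals of counting error. The blue point lies above the orange one in every pair but that of subgroup C, whose intervals overlap.

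A and B were not compared with each other. A had 62 control and 29 foxA cells and B had 58 and 20. Their leading genes differed between the libraries, with a median log2 difference of 1.40 in A and -6.61 in B, and came from few cells. SMESG000038351.1 led A with 48 UMIs in 3 cells, and SMESG000055421.1 followed with 230 UMIs in 8 cells. In B, SMESG000058321.1 led with 137 UMIs, of which 99.3% came from 1 cell, and all 88 UMIs of SMESG000068743.1 came from 1 cell. The line between A and B moved with the clustering. In 2 of 8 other clusterings the members outside C stayed 1 group. In the other 6 they formed 16 subgroups, 10 of which met the limit on leading-gene differences. The log2 ratio of share was below 0 in all 10, from -2.66 to -0.60, and its interval lay below 0 in 8. C was recovered in all 8 clusterings, with 8 to 12 control cells and 8 to 14 foxA cells.

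Clustering all 12759 cells without the markers placed 184 of the 190 members in 1 cluster, 19 of the 21 cells of C among them. That cluster had 282 cells, 98 of which did not meet the rule. Of these 98 cells 58 had 0 marker UMIs and 37 had 1 or 2, at a median depth of 615 UMIs. All 20 leading genes were at least 4-fold higher in the 98 cells than in cells outside the cluster. The leading genes could take part in the clustering, so this describes the cluster and tests nothing. In members over all other cells, 50.4% (control) and 48.6% (foxA) of 490 genes passed 4-fold. That share was not computed for the 98 cells, so the count of 20 has no background. SMESG000019976.1 stood at 1266 CPM in these control cells and 558 CPM in these foxA cells, against 7.42 and 1.29 CPM outside the cluster. The cluster held 3.09% of control cells (2.67% to 3.57%) and 1.43% of foxA cells (1.16% to 1.74%), so that the log2 ratio was -1.11 (-1.48 to -0.75). For its non-members alone, 58 control and 40 foxA cells, the log2 ratio was -0.72 (-1.34 to -0.11).

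When this cluster was divided on its own, again without the markers, it fell into 5 groups at the settings used for the members. The 2 with the most members had 70 control and 30 foxA cells and 56 control and 22 foxA cells. Their log2 ratios of share were -1.40 (-2.07 to -0.77) and -1.53 (-2.31 to -0.80). The group that held subgroup C had 10 cells in each library, a log2 ratio of -0.18 (-1.60 to 1.24). A further group of 14 control and 11 foxA cells, with a ratio of -0.53 (-1.81 to 0.72), had only 4 members. Its leading gene was SMESG000081649.1, found in 21 of its 25 cells at 7793 CPM, against 5.57 CPM in the rest of the cluster and 0.419 CPM in all other cells. In that group 19 of the 20 leading genes of the class were at least 4-fold higher than outside the cluster, which is again a description. The share of all genes past 4-fold was not computed there either. The fifth group, of 35 control and 24 foxA cells, was not compared because its leading genes differed between the libraries. The intervals of these small groups include both 0 and the ratios of the large groups, so the number of cells does not tell these apart. At resolution 0.25, with another seed and with 20 principal components, the cluster fell into fewer groups. The largest group then had log2 ratios of -1.50, -1.42 and -1.47, and the group with most cells of C -0.18, -0.18 and -0.32. In each of these divisions a further group was not compared because its leading genes differed between the libraries.

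Within the class, gene levels in control and foxA members were compared from sums of 85313 and 57851 UMIs. The 492 genes with at least 50 UMIs had a median log2 ratio (foxA over control) of 0.06 and a median size of 0.28. In all other cells, whose sums are far larger, the same genes had a median size of 0.23. In the class 31 genes, 6.3% of those compared, were at least 2-fold apart, 10 higher and 21 lower in foxA members. In all other cells 3.25% were. TMM factors gave 10 higher and 26 lower. The limit of 50 UMIs applied to both libraries together, where control members held more UMIs. A gene high in control members thus passed it more easily than one equally high in foxA members. For 13 of the 31, over 50% of the UMIs on the higher side came from 1 cell, and the other 18 were spread more widely, 6 of them higher and 12 lower. Without the members that reached another class it was 5.59% of 429 genes, and without C it was 5.83% of 429. Without C and without the members that reached another class, 11 of 361 genes, 3.05%, were 2-fold apart, 2 higher and 9 lower.

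Like most of the 492 genes compared, the leading genes of the class differed little between the libraries. Their median log2 ratio was -0.10, from -0.47 for SMESG000012330.1 to 0.68 for SMESG000037790.1, with 9 above 0 and 11 below. None of the 20 was 2-fold apart in the whole class, beside 6.3% of all 492 genes, so this count does not set them apart. In A and B without the members that reached another class 1 of the 20 was, SMESG000037790.1 at 1.08, beside 3.05% of 361 genes. After thinning each member to 400 UMIs, which kept 102 control and 61 foxA members, 9 of 167 genes were 2-fold apart (5.39%). Of these, 5 were higher and 4 lower. Fewer genes and cells were compared than at full depth. Whether depth or the limit on UMIs bears on the larger number of lower genes at full depth was not tested. None of the 20 leading genes was among the 9. Their median log2 ratio after thinning was -0.11, from -0.99, just short of 2-fold, to 0.44. Whether all 20 still met the limit on UMIs after thinning was not checked. Their absence from the 9 thus does not set them apart. Of the markers, SMESG000006021.1 stood at 1864 CPM in control members and 6050.0 CPM in foxA members, beside the 6.98% and 19.7% of members that C made up. Its part in that difference was not tested.

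The 2 highest and 2 lowest log2 ratios rested on very few cells. SMESG000058321.1 had 137 UMIs in control members and 0 in foxA members, at least 31.0-fold lower, but 99.3% of the 137 lay in 1 cell. SMESG000068743.1 had 88 UMIs, all in 1 control cell, and 0 in foxA members, at least 19.9-fold lower. Without the members that reached another class, both genes had 0 UMIs in both libraries. SMESG000049723.1 had 1 UMI in control members and 77 in foxA members, a log2 ratio without added CPM of 6.83 (4.31 to 12.1), and 66.2% of the 77 came from 1 cell. SMESG000003087.1 had 14 UMIs in control members and 66 in foxA members, a log2 ratio of 2.80 (1.95 to 3.74), with 51.5% of the 66 from 1 cell. Both intervals treat UMIs as independent, which UMIs from 1 cell are not. Of the UMIs in members, 71 of SMESG000049723.1 and 45 of SMESG000003087.1 lay in 2 foxA cells of C each. On the CPM + 10 scale their log2 ratios were 5.95 and 2.72 in the class, and 5.96 and 4.67 without the members that reached another class. In A and B alone they were 2.58 and 1.27, and in A and B without those members 0.51 and -0.15. These 4 genes thus show no difference that many members share.

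**Figure D5:**
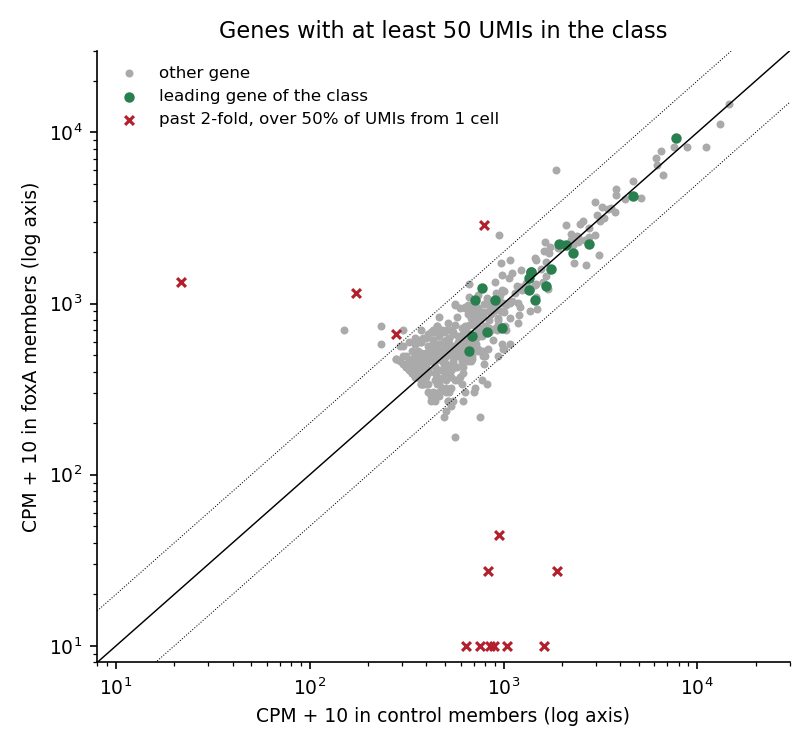
Levels of the 492 genes with at least 50 UMIs in the class, as CPM + 10 in control members (x axis) and foxA members (y axis), both on log axes. The solid line marks equal levels and the dotted lines a 2-fold difference. The 20 leading genes (green) lie between the dotted lines, and crosses are the 13 genes past 2-fold with over 50% of their UMIs from 1 cell.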

How the data were processed

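The deposited matrices hold whole-number UMI counts per gene and cell barcode, not normalized. Per the file headers Cell Ranger 6.1.2 made them, while the submitters' processing notes name Cell Ranger 7. The build, annotation and cell calling were not given in the sources used here. Per the labels' protocols, cDNA was cut with 30 guides against 16S sequence and amplified for 10 cycles.

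Cells with under 200 genes were removed (78 control, 17 foxA, no members). No doublet caller was run and no doublets were removed. Members were clustered with scanpy 1.11.5 and igraph 0.11.9, with counts scaled to 10000 per cell, log-transformed and capped at 10 after standardising. Up to 1000 variable genes, 10 principal components, 15 neighbours and Leiden resolution 0.5 were used (2000 genes and 30 components for all cells). Subgroups were compared where the 10 leading genes had a median log2 difference of at most 1 in size between the libraries. UMIs were summed per library and compared as log2 of CPM + 10, a scale that understates the change of low genes. Shares have exact Clopper-Pearson intervals, ratios exact conditional binomial intervals. A count of 0 was taken to allow 3 counts. The calculations were tested on simulated data.

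Named genes were the 20 highest and 3 lowest of the class profile, the 2 highest and 2 lowest between the libraries, and 2 per subgroup. Members and lists were chosen with earlier results of these data known. The alternatives were other cell, marker and gene limits, clusterings, pseudocounts, thinning and TMM factors (edgeR 4.0.16, R 4.3.3).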

Additional observations from a re-analysis of the deposited data

Results flagged for a closer look

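The share of the subgroups had log2 ratios of different sign, -1.47 for A and B and 0.23 for C. Subgroup C, whose cells carry SMESG000006021.1, had 9 control and 12 foxA cells, while A and B had 120 and 49. The difference of their log2 ratios of share was 1.71, with a counting interval of 0.23 to 3.22. The interval of C alone, -1.14 to 1.66, gives it no direction, and its ratio was below 0 in 5 of 9 alternatives. The difference was not tested, because there is 1 library per condition.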

How the results depend on the processing

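No paired analysis was possible because there is only 1 library per condition, so none could be left out either. The log2 ratio of the class share stayed within its counting interval in 14 of 15 alternatives. It was -0.066 (-1.32 to 1.20) when SMESG000006021.1 alone chose the members, with 12 control and 13 foxA cells, and this construction selects subgroup C. The ratios of C (-0.50 to 0.35, below 0 in 5), of A and B (-1.58 to -1.35) and their difference (0.85 to 1.85) stayed within counting error in all 9 alternatives each, and 20 of 20 leading genes of each re-chosen list were 4-fold higher in the foxA library in all 5.

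The median size of the within-class log2 ratio was 0.36 when genes needed 20 UMIs and 0.19 when they needed 200. The share of genes past 2-fold was 11.3% at 20 UMIs and 3.05% in A and B without members reaching another class, where SMESG000003087.1 reversed to -0.15. TMM factors moved this ratio's median over the 492 genes by -0.13. The cell split C against A and B, the division of the all-cell cluster and the comparisons in A and B alone were chosen after seeing the data. Values of C rest on 9 control and 12 foxA cells, with 4653 and 9327 UMIs.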

Other observations

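The feature table lists SMESG000019977.1, SMESG000019976.1 and SMESG000019975.1 in consecutive rows, and all 3 were high in the class. SMESG000019977.1 had 5099 CPM in control members and 4131 CPM in foxA members, against 95.5 and 36.1 CPM in other cells. Its level differed between the subgroups. UMIs of the gene were found in 151 of the 169 cells of A and B and in 0 of the 21 cells of C, where it was at least 24.3-fold lower. SMESG000019975.1 was found in 164 cells of A and B and in 15 cells of C. SMESG000006020.1, the row after SMESG000006021.1, had 49 cells with a UMI in A and B and 0 in C, the reverse of its neighbour in the table. Whether the row order follows the genome is not given in the sources used here, and whether neighbouring genes share reads was not tested.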
